A study of Arabidopsis thaliana with 14 samples.

Results

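Of the 1114 genes that the authors listed as changed between fen1 and control seedlings of Arabidopsis thaliana, 4 are described here, all encoding cytochrome P450 enzymes of indole phytoalexin synthesis: CYP71A12, CYP71A13, CYP82C2 and PAD3 (also named CYP71B15). They were chosen by gene identifier, and the change in these RNA data was known when they were chosen, so their fold changes are given as a description and support no test. The plants compared were a fen1 mutant and a transgenic wild type (TWT). FEN1 encodes flap endonuclease 1, an enzyme that trims the 5′ flaps of newly made DNA. The labels do not name the fen1 allele or the transgene of TWT. Both genotypes were of the C24 ecotype and were sampled as whole seedlings, 10 days old, grown on sucrose-containing plates with no treatment. Each genotype gave 2 RNA libraries, and the modified histones H3K27me3, H3K4me3 and H3K9me2 were mapped by chromatin immunoprecipitation with a single library for each mark in each genotype. In the authors' deposited table FEN1 (AT5G26680) had 22.7 FPKM in fen1 and 14.5 FPKM in TWT, and as the kind of mutation is not labelled, this level checks nothing.

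The RNA values were the authors' FPKM, a read density per length of transcript and per size of library, with 1 value per genotype made from its 2 libraries. The spread between libraries, and the read depth behind each value, could not be seen, so no SD stands beside any level, and an order of levels cannot be judged against replicate error. The test behind every q-value is the authors', and q had a floor of 0.00173 in the table. The chromatin data were 1 list of peaks per mark from TWT. The fen1 ChIP libraries were not analysed here, so the marks describe the genes in TWT and say nothing of a change in fen1.

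Plants of the mustard family make antimicrobial indoles from tryptophan when they are attacked. The P450 enzymes CYP79B2 and CYP79B3 turn tryptophan into indole-3-acetaldoxime, from which indole glucosinolates, camalexin and the cyanogenic 4-hydroxyindole-3-carbonyl nitrile (4-OH-ICN) are all made. CYP71A13 and the closely related CYP71A12 dehydrate the oxime on the way to camalexin and to indole-3-carbonyl nitriles. PAD3 closes the last ring of camalexin, and CYP82C2 adds the hydroxyl group of 4-OH-ICN. These genes are usually low in unstressed seedlings and are known as targets of the transcription factor WRKY33.

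All 4 genes were higher in fen1 than in TWT. Over all genes tested, 684 of 20132 were listed as higher (3.40%), and since the members were picked from that list, nothing is read from their count. The increase was large for 3 of them and small for PAD3, the enzyme of the last step. The median log2 fold change was 3.60 over the 4 genes and 0.95 over the genes listed as higher.

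CYP71A12 (AT2G30750, chromosome 2, 13099336 to 13101413, minus strand, TAIR10), which dehydrates indole-3-acetaldoxime, stood at 84.1 FPKM in fen1 and 6.65 FPKM in TWT. This was a 12.7-fold difference (log2 3.66, q = 0.00173 in the authors' deposited table). The authors' test statistic for it, 16.0, was the highest of the listed genes for which one was given, while its log2 fold change ranked 10 among 1104 listed genes above 0 in both genotypes.

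CYP71A13 (AT2G30770, chromosome 2, 13109794 to 13112011, minus strand), which carries out the same reaction in camalexin synthesis, stood at 9.10 FPKM in fen1 and 0.79 FPKM in TWT. The fold difference was 11.6 (log2 3.53, q = 0.00173 in the authors' deposited table). Its deposited level was the lowest of the 4 genes in both genotypes, though in TWT it was level with CYP82C2 (0.80 FPKM). Its TWT level was under 1 FPKM. CYP71A12 and CYP71A13 are close paralogs, and the sources used here do not say how reads matching both were assigned. Their separate levels are therefore uncertain. The ratio of CYP71A12 to CYP71A13 in FPKM was 9.24 in fen1 and 8.45 in TWT, so the deposited levels differed by similar factors. Whether CYP71A13 rose apart from reads shared with CYP71A12 was not tested.

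CYP82C2 (AT4G31970, chromosome 4, 15462408 to 15464358, plus strand), the hydroxylase of the 4-OH-ICN branch, stood at 11.2 FPKM in fen1 and 0.80 FPKM in TWT. Its 14.1-fold difference was the largest of the 4 (log2 3.82, q = 0.00173 in the authors' deposited table) and ranked 7 among the listed genes above 0 in both genotypes. The neighbouring paralogs CYP82C3 and CYP82C4 were not listed as changed. Nor is it said how reads were divided among these copies.

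PAD3 (AT3G26830, chromosome 3, 9887948 to 9889705, plus strand), which makes camalexin from its direct precursor, stood at 11.0 FPKM in fen1 and 6.63 FPKM in TWT. The difference was 1.66-fold (log2 0.73, q = 0.00173 in the authors' deposited table) and ranked 468 among the listed genes above 0 in both genotypes. PAD3 was thus listed at the same q as the other members, which is the floor of the table, with a far smaller change.

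Because the 4 genes changed unequally, their relative levels differed between the genotypes. In fen1, CYP71A12 was the most abundant at 7.65 times the level of PAD3, and CYP82C2, PAD3 and CYP71A13 lay between 11.2 and 9.10 FPKM. In TWT, CYP71A12 and PAD3 were level, with a ratio of 1.00, and both stood above CYP82C2 and CYP71A13, which differed by a ratio of 1.01. PAD3 over CYP71A13 came to 1.21 in fen1 and 8.44 in TWT, in FPKM. Of the summed FPKM of the 4 genes, 115 in fen1 and 14.9 in TWT, CYP71A12 made up 72.9% in fen1 and 44.7% in TWT, and PAD3 made up 9.52% in fen1 and 44.6% in TWT. In whole seedlings, more cells that express a gene and more RNA per cell cannot be told apart.

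**Figure D1:**
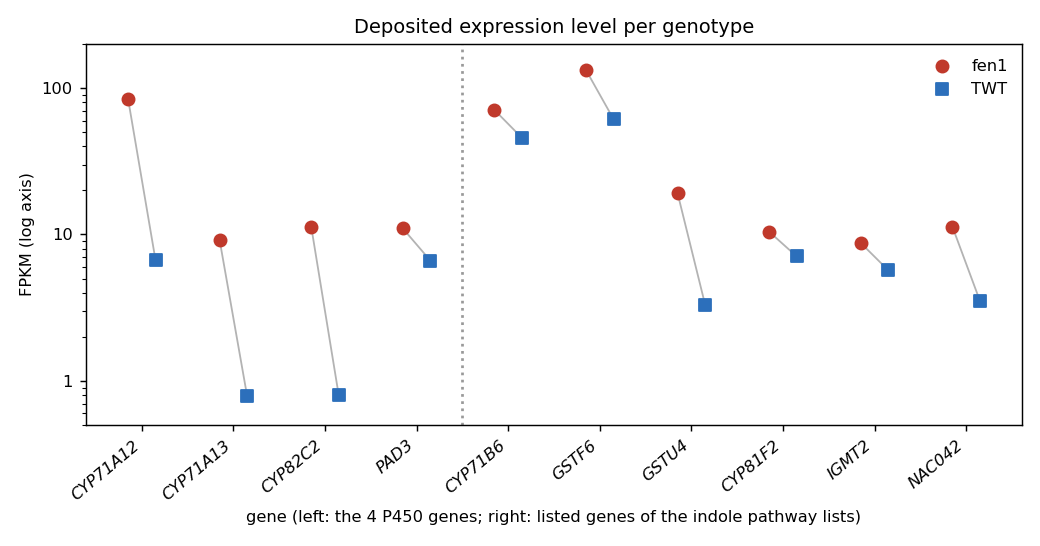
Deposited FPKM (log axis) of the 4 P450 genes and of the 6 listed genes of the indole pathway lists, with fen1 as circles and TWT as squares, 1 value per genotype. CYP71A12, CYP71A13 and CYP82C2 differ by 11.6-fold to 14.1-fold, PAD3 by 1.66-fold.

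**Figure D2:**
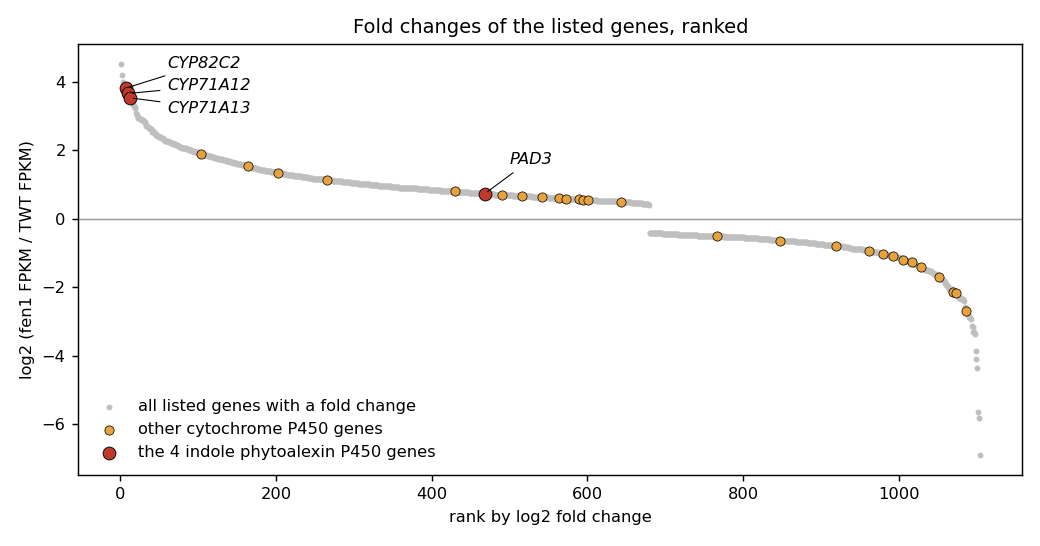
Log2 fold change, fen1 over TWT, of the 1104 listed genes above 0 in both genotypes against their rank, with the 4 genes in red and other listed P450 genes in orange. CYP82C2, CYP71A12 and CYP71A13 rank 7, 10 and 12, and PAD3 ranks 468.

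The rest of the indole pathway was followed through 5 lists with 59 genes, members left out. Of these, 6 were listed as higher (10.2%, beside 3.40% of all tested genes) and none as lower (beside 2.14% of all tested genes). Left out of the lists were IGMT4, listed as lower, and GSTF7, listed as higher, each a near copy of a list gene. TSBtype2, a gene of a second type of tryptophan synthase beta subunit, was listed as higher and was also left out. The lists were drawn up with earlier results of these data known, and genes outside the table have no value, so a gene not listed may have been unchanged or too low to test.

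The list of camalexin and 4-OH-ICN enzymes held 13 further genes, of which 3 were higher (23.1%, beside 3.40% of all tested genes) and 10 were not listed. GSTU4, a glutathione transferase gene, had the largest change of them, at 19.1 FPKM in fen1 and 3.32 FPKM in TWT (log2 2.52, q = 0.00173 in the authors' deposited table). GSTF6, linked in Arabidopsis to the transfer of glutathione to the camalexin intermediate, stood at 132 FPKM in fen1 and 61.4 FPKM in TWT (log2 1.11, q = 0.00173 in the authors' deposited table). GSTF6 has a near copy next to it, so its level is uncertain. That copy, GSTF7, in none of the lists, stood at 99.6 FPKM in fen1 and 47.1 FPKM in TWT (log2 1.08 in the authors' deposited table). CYP71B6, which acts on indole-3-acetonitrile and gives indole-3-carboxylic acid derivatives, stood at 70.9 FPKM in fen1 and 45.7 FPKM in TWT (log2 0.63, q = 0.00173 in the authors' deposited table). CYP79B2 and CYP79B3, the entry enzymes, were not listed, nor were CYP71A18, the γ-glutamyl peptidase gene GGP1, or the P450 reductase genes ATR1 and ATR2 that supply electrons to such enzymes.

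None of 11 genes of tryptophan synthesis, TSBtype2 left out, was listed in either direction by the authors' test at a q under 0.05. No p-value was given for them. The same held for the 5 genes of phytoalexin transport and glutathione supply, among them the ABC transporter gene PEN3 and GSH1, which starts glutathione synthesis. Of all tested genes, 3.40% were listed as higher and 2.14% as lower, so nothing is read from no call in lists this small.

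Of 17 indole glucosinolate genes, 2 were higher (11.8%, beside 3.40% of all tested genes), and nothing is read from so small a count. CYP81F2, which hydroxylates the indole ring of these glucosinolates, stood at 10.4 FPKM in fen1 and 7.08 FPKM in TWT (log2 0.56, q = 0.0270 in the authors' deposited table). IGMT2, a methyltransferase gene acting after it, stood at 8.74 FPKM in fen1 and 5.69 FPKM in TWT (log2 0.62, q = 0.0287 in the authors' deposited table), and it too has near copies beside it. Among these copies IGMT4, in none of the lists, went the other way. It stood at 35.5 FPKM in fen1 and 53.2 FPKM in TWT (log2 −0.59 in the authors' deposited table). CYP83B1 and SUR1, the core enzymes of this branch, and the activator genes MYB34, MYB51 and MYB122 were not listed. At a q under 0.01 neither CYP81F2 nor IGMT2 remained.

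Of 13 regulators of phytoalexin synthesis, 1 was listed. NAC042 (ANAC042), a transcription factor gene needed for full camalexin induction, stood at 11.3 FPKM in fen1 and 3.53 FPKM in TWT (log2 1.68, q = 0.00173 in the authors' deposited table). WRKY33, the kinase genes MPK3 and MPK6 and PAD4 were not listed. With 1 of 13 called (7.69%), nothing is read from the count.

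Other cytochrome P450 genes moved in both directions. Among 236 P450 genes in the reference table besides the members, 14 were higher (5.93%) and 13 lower (5.51%), beside 3.40% and 2.14% of all tested genes. The higher ones include CYP71B6 and CYP81F2, which were counted in the lists above. At a q under 0.01, 5 were higher and 9 lower, and with a 2-fold minimum 4 and 9. The log2 fold changes of the listed ones ran from −2.69 to 1.90 in the authors' deposited table, all below those of CYP71A12, CYP71A13 and CYP82C2. The highest 3 were CYP81D8 (16.3 FPKM in fen1 and 4.38 in TWT, log2 1.90 in the authors' deposited table), CYP76C2 (log2 1.53) and CYP94B3, a jasmonoyl-isoleucine hydroxylase gene (log2 1.34). The lowest 3 were CYP710A3 (0.28 FPKM in fen1 and 1.81 in TWT, log2 −2.69 in the authors' deposited table), CYP735A2, a cytokinin hydroxylase gene (log2 −2.18), and CYP93D1 (log2 −2.14).

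Most relatives within the same subfamilies were not listed, and those that were are named here after their values were seen. In CYP71A, the subfamily of CYP71A12 and CYP71A13, the reference table names 14 further genes, of which 13 were not listed and 1 was lower. It was CYP71A16, a marneral oxidase gene, at 0.61 FPKM in fen1 and 1.47 FPKM in TWT (log2 −1.27, q = 0.0447 in the authors' deposited table). In CYP71B, the subfamily of PAD3, the reference table names 35 further genes, of which 30 were not listed, CYP71B6 was higher and 4 were lower, beside 3.40% higher and 2.14% lower of all tested genes. Of these 4, CYP71B23 changed most, at 7.46 FPKM in fen1 and 17.1 FPKM in TWT (log2 −1.20), followed by CYP71B22 (log2 −1.02), CYP71B18 (log2 −0.80) and CYP71B2 (log2 −0.51), all from the authors' deposited table.

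The listed genes most like each member were those at the smallest Euclidean distance in 2 values, the log2 FPKM of fen1 and the log2 FPKM of TWT. Nearest to CYP71A12 were the cupin gene AT5G38910, with 85.8 FPKM in fen1 and 5.41 FPKM in TWT (distance 0.30 log2 units), and AT3G27630 (0.37). CYP71A13 had AT1G12030, a gene of unknown function, at a distance of 0.18 and then CYP82C2 at 0.31. CYP82C2 had CYP71A13 and then AT1G12030 at 0.38. Nearest to PAD3 were the meiotic recombinase gene DMC1, with 10.4 FPKM in fen1 and 6.54 FPKM in TWT (0.086), and AT5G25260 (0.12).

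The TWT peak lists were read for the marks these genes carried in the control. CYP71A12, CYP71A13 and CYP82C2, the 3 genes with the large changes, lay under H3K27me3, the mark of Polycomb repression, and PAD3 carried no peak of any of the 3 marks. Of the 684 genes listed as higher, 39.8% had an H3K27me3 peak and 21.6% had no peak of the 3 marks. No member carried H3K4me3, a mark of active promoters, on its gene body, beside 46.8% of the higher genes. No member carried H3K9me2, the mark of silent heterochromatin, beside 2.92% of the higher genes. Each mark rests on 1 library, and the scores are those the authors' peak caller gave.

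On CYP71A12 a single H3K27me3 peak (chromosome 2, 13099365 to 13101699, TAIR10) of 2335 bp covered 98.6% of the gene and ran 286 bp upstream of its start site. Its score of 216.82 was above that of 70.5% of the 9239 peaks of the list. On CYP71A13, 3 H3K27me3 peaks covered 86.3% of the gene. They began at 13109675, 13110581 and 13111522, with gaps of 303 and 1 bp between them, and the last ran 242 bp upstream of the start site. Their scores of 80.82, 131.56 and 178.83 were highest at the 5′ end and lay above 28.9, 52.1 and 63.7% of the list.

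CYP82C2 carried the strongest H3K27me3 of the members. The peak (chromosome 4, 15462014 to 15464550) of 2537 bp covered the whole gene from 394 bp upstream of its start site, with a score of 1042.7, above 99.0% of the list. A second H3K27me3 peak, with a score of 171.84, ended 463 bp before the gene. An H3K4me3 peak (15464400 to 15465712, score 634.89) began beyond the 3′ end of CYP82C2 with 41 bp between them. It lay 1992 to 3304 bp from the start site of CYP82C2, so a count that extends the gene would include a peak away from its promoter.

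At PAD3 the nearest peaks of H3K27me3 and H3K4me3 were 2715 bp and 2938 bp away. The H3K27me3 peak upstream (chromosome 3, 9880787 to 9885232) was strong, with a score of 1085.34 above 99.2% of the list, and ended before the gene. The nearest H3K9me2 peak lay 8669 bp away. In TWT, PAD3 at 6.63 FPKM and CYP71A12 at 6.65 FPKM were thus level with no H3K27me3 peak on PAD3 and 98.6% of CYP71A12 under one.

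**Figure D3:**
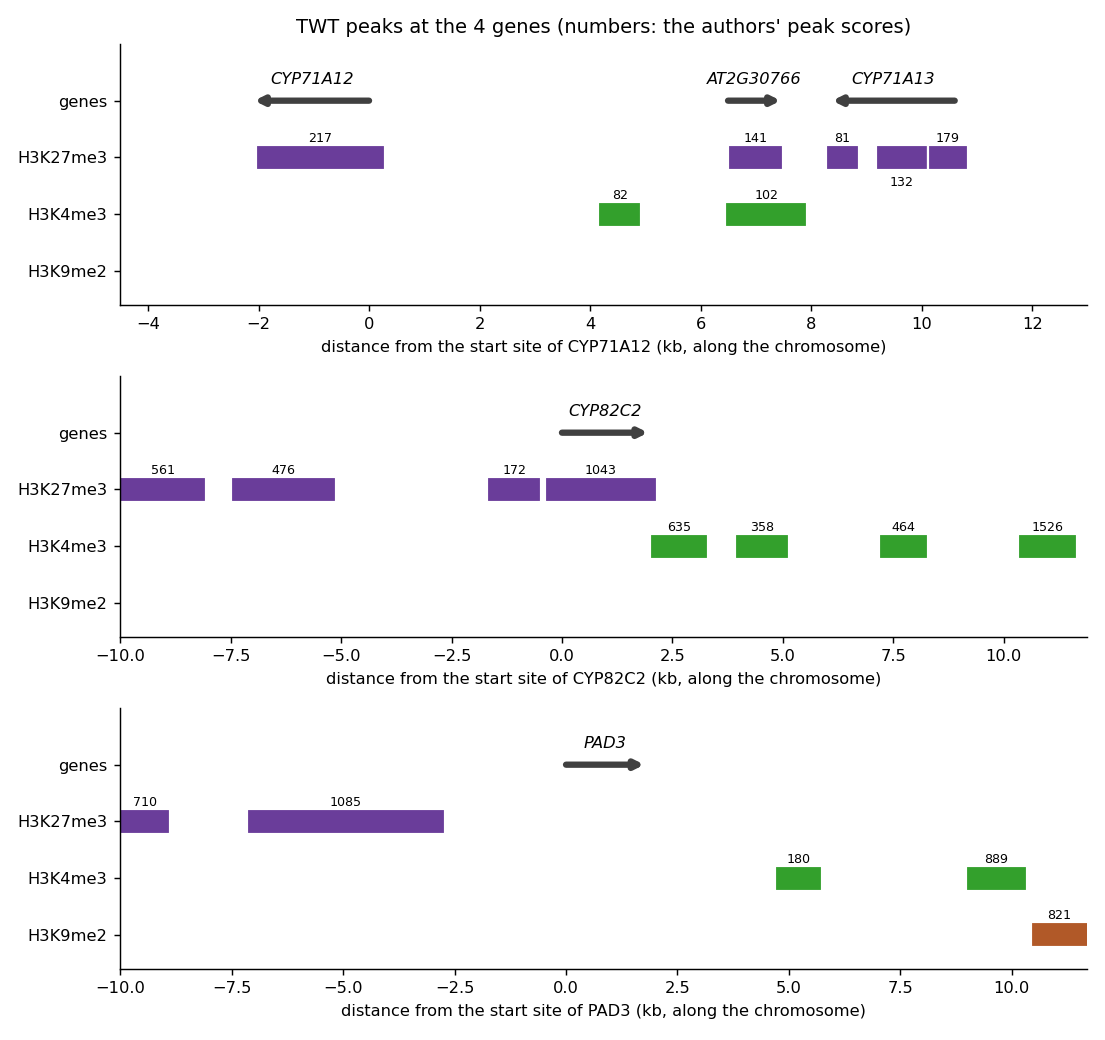
TWT peaks of H3K27me3, H3K4me3 and H3K9me2 (coloured bars, with the authors' score beside each) and bodies of listed genes (arrows pointing in the direction of transcription) against distance in kb from the start site of CYP71A12, CYP82C2 or PAD3. H3K27me3 covers 98.6% of CYP71A12, 86.3% of CYP71A13 and the whole of CYP82C2, and no peak touches PAD3.

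The interval between CYP71A12 and CYP71A13 (chromosome 2, 13101414 to 13109793, 8380 bp) was 16.7% covered by H3K27me3 and 27.1% by H3K4me3, and held no H3K9me2 peak. The reference table places AT2G30760 and AT2G30766 between the P450 genes, of which AT2G30766 was listed. AT2G30766 (13107909 to 13108863, plus strand), an unknown protein by its deposited description, ended 930 bp before CYP71A13 on the opposite strand in the deposited coordinates. In the TAIR10.1 reference table its model is longer and overlaps that of CYP71A13, so reads of the overlap could count for either gene, and the FPKM of CYP71A13 is uncertain for this reason too. AT2G30766 stood at 283 FPKM in fen1 and 36.9 FPKM in TWT (log2 2.94, q = 0.00173 in the authors' deposited table). The sources used here do not say whether the RNA reads kept their strand, so transcription running past the end of AT2G30766 could not be told from that of CYP71A13.

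AT2G30766 differed from both of its P450 neighbours in carrying 2 marks in TWT, with H3K27me3 over 99.4% and H3K4me3 over 100% of its body. Its H3K4me3 peak (13107854 to 13109346) had a score of 101.92, above 4.35% of the 15540 peaks of the list, and ended 447 bp before CYP71A13. The other H3K4me3 peak of the interval (13105564 to 13106338) had a score of 81.56, above 2.88% of the list. The H3K27me3 peak on AT2G30766 had a score of 140.79, above 54.9% of its list. H3K27me3 on this stretch thus came as separate peaks over the 3 genes, with no peak over most of the spacer.

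How far the H3K27me3 cover of the members is shared was looked at over the higher genes, and no share was counted over the lower genes. Of the 684 genes, 18.6% had at least 90% of the body under H3K27me3, as CYP71A12 and CYP82C2 did. Of the genes above 0 in both genotypes, 125 with at least 90% cover had a median log2 fold change of 1.25, and 410 with no H3K27me3 peak had 0.84, so most covered genes changed far less than CYP71A12 or CYP82C2. The median TWT level was 2.74 FPKM in the covered genes and 8.92 FPKM in those with no peak, so cover and starting level moved together. Of 20132 tested genes, 21 (0.104%) were listed at a q under 0.05, above 0 in TWT and at least 8-fold higher, 3 of them members. Genes outside the list have no fold here, and listed genes at 0 in TWT were not counted. Of the other 18, 11 carried an H3K27me3 peak, 2 an H3K4me3 peak and none an H3K9me2 peak. The shares over all 684 higher genes were 39.8, 46.8 and 2.92%. Cover by H3K27me3 was not confined to higher genes. Of the lower P450 genes named above, CYP710A3, CYP735A2, CYP93D1, CYP71A16 and CYP71B22 had 74.0, 50.6, 96.0, 93.9 and 90.7% cover. CYP71B23, CYP71B18 and CYP71B2, also lower, had none. Among the P450 genes named for the largest rises besides the members, CYP94B3 had 62.4% cover, and CYP81D8 and CYP76C2 had none.

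**Figure D4:**
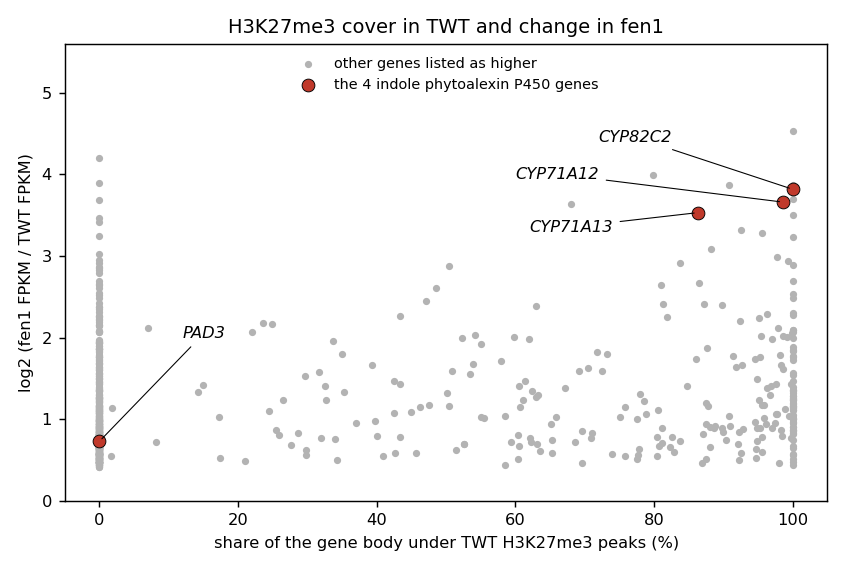
Log2 fold change, fen1 over TWT, against the share of the gene body under TWT H3K27me3 peaks for genes listed as higher and above 0 in both genotypes, with the 4 members in red. CYP82C2, CYP71A12 and CYP71A13 lie at 100, 98.6 and 86.3% cover with log2 values from 3.53 to 3.82, and PAD3 lies at no cover and 0.73.

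The 6 other pathway genes that rose had different marks in TWT. CYP71B6 and CYP81F2 carried H3K4me3 over 83.5% and 68.3% of the body and no H3K27me3. GSTF6, GSTU4 and NAC042 carried no peak, as PAD3 did. IGMT2 carried H3K27me3 over 51.5% of its body and neither of the other marks.

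Some markers of root tissue were also called. Of 13 root markers, 4 were higher and none lower (30.8%, beside 3.40% of all tested genes), and the 9 not listed have no value. Those not listed were COBL9, RHS18, SHR, SCR, PLT1, PLT2, WER, CPC and GL2. With a 2-fold minimum, 1 was called. The 4 summed to 77.6 FPKM in fen1 and 39.8 FPKM in TWT, and none was at 0. EXPA7, an expansin of root hairs, changed most (9.21 FPKM in fen1 and 3.59 FPKM in TWT, log2 1.36 in the authors' deposited table), and EXPA18, LRX1 and PRP3 stood at log2 0.95, 0.95 and 0.89. A list of 18 iron deficiency genes was also drawn up with earlier results of these data known. Of these, 10 were higher (55.6%, beside 3.40% of all tested genes) and none lower (beside 2.14%). The 10 higher genes ran from log2 0.68 to 3.89 in the authors' deposited table. They were the transcription factor genes BHLH100, bHLH38 and bHLH39, the ubiquitin ligase gene BTS, the transporter gene ABCG37 and AT3G13610, AT3G12900, AT1G47395, AT1G47400 and AT2G30766. CYP82C4, the paralog beside CYP82C2 that is induced by low iron, was not listed. The part of root content or of the iron response in the levels of the 4 P450 genes was not tested.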

How the data were processed

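RNA values came from the authors' deposited table of 1114 genes, all marked significant. The unit is absent from its header, and the layout is that of Cuffdiff, so its 2 value columns were taken as FPKM. The deposited log2 values divide fen1 by TWT, without a pseudocount, and matched the FPKM ratio within 1.17e-05. The p-values and q-values are the authors' own and imply 20132 tests. Tools named in the submitters' processing notes, without their role, are TopHat2 2.1.1, Cuffdiff 2.1.1, Bowtie 0.12.9 and SAMtools, with TAIR10 as the genome. Peak names in the deposited files point to MACS, and the score of a peak is the authors' value. The sources used here give no other settings. Whether the 2 RNA libraries of a genotype were separate cultures is not labelled, so the spread behind the p-values may be technical.

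No test of expression was added. A gene was called where the authors' q was under 0.05. BED starts were turned into 1-based positions, and 1 bp of overlap between a peak and the gene body counted as carrying the mark. Names came from a TAIR10.1 reference table, which matched 1113 identifiers and was used for names and gene order. Other P450 genes were those with a CYP symbol or synonym there. The overlap and test-count steps were tested on simulated data. Python 3.11.15 and pandas 2.3.3 were used.

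The members and the 8 lists were chosen with earlier results of these data known. Genes named were the members, called list genes, 3 P450 genes per direction, listed genes in the interval or within 10 kb of a member, and the 2 nearest in level to each member. Also named, after their values were seen, were IGMT4, GSTF7, the listed CYP71A and CYP71B relatives, AT2G30660 and AT2G30670. The same holds for the genes found by the search for indole or tryptophan in the deposited descriptions.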

Additional observations from a re-analysis of the deposited data

How the results depend on the processing

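Leaving out single libraries was not possible, since the table gives 1 value per genotype. No paired analysis was possible because the value columns carry no replicate number. With log2(FPKM + 1) the differences of the 4 members were 3.48 for CYP71A12, 2.50 for CYP71A13, 2.77 for CYP82C2 and 0.65 for PAD3. Neither this setting nor log2(FPKM + 0.1) could change their direction. A q under 0.01 could not either, since all 4 stood at the floor of q. The direction of the members was therefore not put to a test. At a q under 0.01 the indole glucosinolate genes called higher numbered 0 and the other P450 genes called higher 5. With a 2-fold minimum, these counts were 0 and 4, and 1 root marker was called. With genes extended by 1000 bp on each side, 2 members, CYP71A13 and CYP82C2, had an H3K4me3 peak within reach. Each of these peaks lay beyond the 3′ end of the member, and that near CYP71A13 is the one on AT2G30766. The other 63 of 69 alternatives, which include those of the members, changed no count by more than 1.5 times. Levels under 1 FPKM rest on fewer reads than high levels at the same length.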

Other observations

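Outside the members and the lists, 10 listed genes have a deposited description that mentions indole or tryptophan, a search chosen after the data were seen. Of these, 6 were higher and 4 lower in fen1, beside 684 higher and 430 lower among all 1114 listed genes (61.4% higher). NIT2, a nitrilase gene, stood at 66.8 FPKM in fen1 and 26.9 FPKM in TWT (log2 1.31 in the authors' deposited table). TSBtype2, which encodes a second type of tryptophan synthase beta subunit and was in none of the lists, stood at 50.6 FPKM in fen1 and 36.5 FPKM in TWT (log2 0.47, q = 0.0217 in the authors' deposited table). UGT74E2, a glucosyltransferase gene for indole-3-butyric acid, stood at 17.8 FPKM in fen1 and 4.61 FPKM in TWT (log2 1.95 in the authors' deposited table). The 4 lower genes were the auxin-responsive genes IAA2, IAA7 and IAA29 and the amino acid permease gene AAP6.

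On the far side of CYP71A12 from CYP71A13, 2 further listed genes, chosen after their values were seen, were higher. AT2G30670, with 28431 bp between it and CYP71A12, stood at 6.81 FPKM in fen1 and 1.91 FPKM in TWT (log2 1.84 in the authors' deposited table). AT2G30660, with 37662 bp between, stood at 3.94 FPKM in fen1 and 0.27 FPKM in TWT (log2 3.87 in the authors' deposited table). H3K27me3 covered 100% of both in TWT.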
